A study of Schizosaccharomyces pombe with 9 samples.

Results

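The 10 genes described here make up the mating and meiosis switch of fission yeast: ste11 (SPBC32C12.02), byr2 (SPBC1D7.05), gpa1 (SPBC24C6.06) and rep1 (SPBC2D10.06) on chromosome II, mei2 (SPAC27D7.03c), ste4 (SPAC1565.04c), byr1 (SPAC1D4.13), spk1 (SPAC31G5.09c) and fus1 (SPAC20G4.02c) on chromosome I, and ste6 (SPCC1442.01) on chromosome III. They were chosen by name from the 6988 gene IDs of the deposited count matrix, with earlier results of these data known. All 10 were found and passed the filter on low counts. Poly(A)+ RNA of Schizosaccharomyces pombe, mating type h-, was sequenced from log-phase cultures in YES, a rich medium, at 30°C. There were 3 strains with 3 biological replicates each: WT, with snf22 unaltered; snf22∆, in which kanMX, a drug resistance marker, replaced most of the coding sequence of snf22; and snf22-(D996A-E997A), in which the ATPase site of Snf22 carries 2 alanine changes and kanMX lies downstream of the gene (also called the ATPase mutant here). Snf22 is the ATPase motor of the SWI/SNF chromatin remodeler. Both mutants carry kanMX and WT does not, so marker and mutation cannot be told apart in a comparison with WT.

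When nitrogen runs out, a fission yeast cell leaves the cell cycle, mates and enters meiosis. Pheromone from the other mating type binds a receptor that signals through the G-alpha protein Gpa1, and the small G-protein Ras1 acts beside it. Both act on a mitogen-activated protein kinase (MAPK) chain in which Byr2 activates Byr1 and Byr1 activates Spk1. Ste11, a high-mobility-group transcription factor, turns on most genes of this program, its own gene included, by binding a sequence called the Ste11 box or TR box. In rich medium the program is held low, and h- cells alone have no partner.

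The libraries held 15696972 to 22664218 counts each. The count of snf22 itself was 2784 ± 48.6 (SD, n = 3) in WT, 1357 ± 126 in snf22∆ and 2183 ± 190 in the ATPase mutant, on the normalized scale explained below. The deletion left the 3′ part of the coding sequence, from which reads can still come. Chi-square tests of replicate pairs set WT replicate 2 and ATPase mutant replicate 1 apart: chi-square per gene was 71.8 and 60.0 between WT replicate 2 and the other WT libraries against 9.30 between those 2, and 33.7 and 35.8 against 5.26 in the ATPase mutant. Replicates of snf22∆ gave 7.06 to 18.6. The 4 entries of the M genes at the mating-type loci, which exist in near-identical copies, were at 0 in every library, so they do not check the mating type. Summed over 7 genes known as markers of M cells, the normalized count was 6160 to 6844 in WT, 4301 to 5284 in snf22∆ and 10786 to 11710 in the ATPase mutant. Over 4 markers of P cells it was 15583 to 20203, 15976 to 16099 and 14831 to 16842, and no marker of either kind was at 0 in all libraries. Most of the P sum came from sxa1, a protease gene, at 15437 ± 2523 in WT.

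To show what the members share in sequence, the window from 250 bases before to 50 bases after the annotated transcript start was read for each from the RefSeq genome ASM294v3. The authors' counts rest on the earlier ASM294v2, so the windows were found by gene ID and no coordinates are given. The box searched was TTCTTTGTT, on both strands, and its 7-letter core CTTTGTT, which the longer form contains. The 4 stretches below are the 250 bases before the start of the key regulators ste11 and mei2, of the MAPK gene spk1 and of rep1, and the 2 shorter ones are the box of ste4 and of ste6 with 10 bases on either side. Capitals mark the 9-letter box or its 7-letter core; AACAAAGAA is the box on the other strand.
ste11: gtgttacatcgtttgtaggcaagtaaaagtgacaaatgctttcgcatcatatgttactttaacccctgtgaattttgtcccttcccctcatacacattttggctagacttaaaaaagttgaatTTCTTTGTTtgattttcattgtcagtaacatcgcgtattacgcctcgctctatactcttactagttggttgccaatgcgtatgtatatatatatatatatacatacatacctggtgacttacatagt
mei2: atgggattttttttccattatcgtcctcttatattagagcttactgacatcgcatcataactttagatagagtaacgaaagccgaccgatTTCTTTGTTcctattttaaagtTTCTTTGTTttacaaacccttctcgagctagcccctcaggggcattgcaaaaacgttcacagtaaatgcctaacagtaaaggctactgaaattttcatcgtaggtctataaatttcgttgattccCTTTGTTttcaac
spk1: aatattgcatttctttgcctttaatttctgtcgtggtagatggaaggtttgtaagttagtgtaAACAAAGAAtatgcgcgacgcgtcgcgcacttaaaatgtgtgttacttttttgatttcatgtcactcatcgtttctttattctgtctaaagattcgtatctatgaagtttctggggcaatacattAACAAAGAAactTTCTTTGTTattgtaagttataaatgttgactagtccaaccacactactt
rep1: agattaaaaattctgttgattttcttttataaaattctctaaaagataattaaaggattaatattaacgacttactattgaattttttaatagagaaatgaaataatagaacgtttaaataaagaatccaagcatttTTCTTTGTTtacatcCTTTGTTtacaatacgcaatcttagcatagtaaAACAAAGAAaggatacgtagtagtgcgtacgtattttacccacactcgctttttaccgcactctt
ste4: tgagtatgctTTCTTTGTTataaaagtag
ste6: attgttagtaAACAAAGAAattcccaaaa

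The 9-letter box was present in 6 of the 10 members, ste11, mei2, ste4, ste6, spk1 and rep1, and in 102 of 5107 promoter windows of coding genes, or 2.0%. The 7-letter core was in 7 of 10, gpa1 being the further one with 2 copies, and in 10.3% of all windows. No match lay in the windows of byr1, byr2 and fus1. Windows with at least 3 copies of the 9-letter box were rare, 4 in all, and 2 of them belonged to mei2 and spk1. In mei2, boxes began 160 and 138 bases before the start and 34 bases after it. In spk1 the 2 nearer boxes, 62 and 50 bases before the start, lie on opposite strands 3 bases apart, with the nearer one on the strand of the gene. The box of ste11 lay 127 bases before its start, in the gene that codes for the factor known to bind it. A match is a description of the letters and not a site shown to be bound here.

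**Figure D1:**
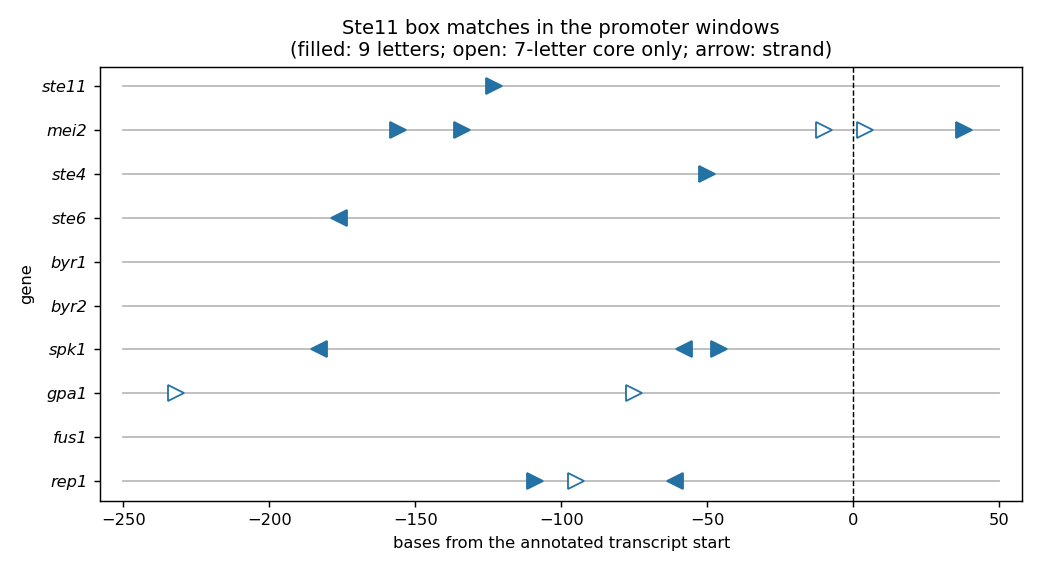
Ste11 box matches in the promoter windows of the 10 members; the x axis gives bases from the annotated transcript start and each line is a gene. Filled arrows are the 9-letter box and open arrows the 7-letter core alone, pointing right on the gene's own strand and left on the other; 6 genes hold the full box and byr1, byr2 and fus1 hold neither.

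The members were measured as normalized read counts, that is, raw counts scaled by TMM to a common library size, and compared among the strains with edgeR's quasi-likelihood test. A gene passed at an adjusted p of at most 0.05, with adjustment over all 6091 genes tested. In bulk cultures, expression in fewer cells and less RNA per cell cannot be told apart. Most of the set was lower in snf22∆ than in WT, and most of it was higher in the ATPase mutant. In snf22∆, 7 of the 10 members fell against WT (mei2, ste11, spk1, rep1, byr1, gpa1 and ste6) and fus1 rose, whereas in the ATPase mutant 6 rose (ste4, fus1, spk1, ste6, ste11 and gpa1) and rep1 fell. Between the mutants themselves 7 members were higher in the ATPase mutant and 0 lower.

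These counts are to be read against a broad response. The members were chosen with earlier results of these data known, so the shares beside them are a description and not a test. In snf22∆, 30.2% of all genes tested were higher and 25.8% lower than in WT, beside 1 and 7 of 10 members. In the ATPase mutant against WT the shares were 25.8% higher and 22.7% lower, beside 6 and 1 of 10. Leaving out ATPase mutant replicate 3 reduced the share that was higher to 16.4%, with 6 members higher still. Between the mutants 8.13% of genes were higher and 8.64% lower in the ATPase mutant, beside 7 and 0 of 10. By edgeR and by DESeq2 the number of members lower there was 0 also at an unadjusted p under 0.05. The share of genes higher between the mutants ranged from 3.83% without snf22∆ replicate 2 to 17.3% without WT replicate 2, and those lower from 4.50% without snf22∆ replicate 1 to 13.6% without WT replicate 2; shares also moved by over 1.5 times without snf22∆ replicate 3 (4.09% and 5.23%), without ATPase mutant replicate 2 (3.995% and 4.90%) and, for the lower ones, without its replicate 3 (4.62%). The members counted there were 7 or 8 higher and 0 lower in each of these fits. The median log2 fold change of the 10 members was −0.59 in snf22∆ against WT, 0.50 in the ATPase mutant against WT and 1.04 between the mutants, beside medians of all genes of 0.02, 0.02 and −0.02. Both comparisons with WT use the same 3 WT libraries, so they are not independent of each other. Without the 2 libraries that stood apart the counts were 1 higher and 7 lower, 6 higher and 1 lower, and 8 higher and 0 lower.

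A stricter rule, which also asked for a 2-fold difference and a mean of 100 normalized counts or more in the higher group, took 3 members in snf22∆ against WT, all lower (ste11, mei2 and spk1), 1 in the ATPase mutant against WT (ste4, higher) and 6 between the mutants, all higher (ste11, mei2, spk1, ste4, ste6 and gpa1). Of all genes it took 5.65%, 4.97% and 1.86%. Some members sat near the fold limit: spk1 changed by −0.88 in snf22∆ without snf22∆ replicate 3, ste4 by 0.97 in the ATPase mutant without WT replicate 2, and gpa1 by 0.93 between the mutants without snf22∆ replicate 3 and by 0.96 without ATPase mutant replicate 1.

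**Figure D2:**
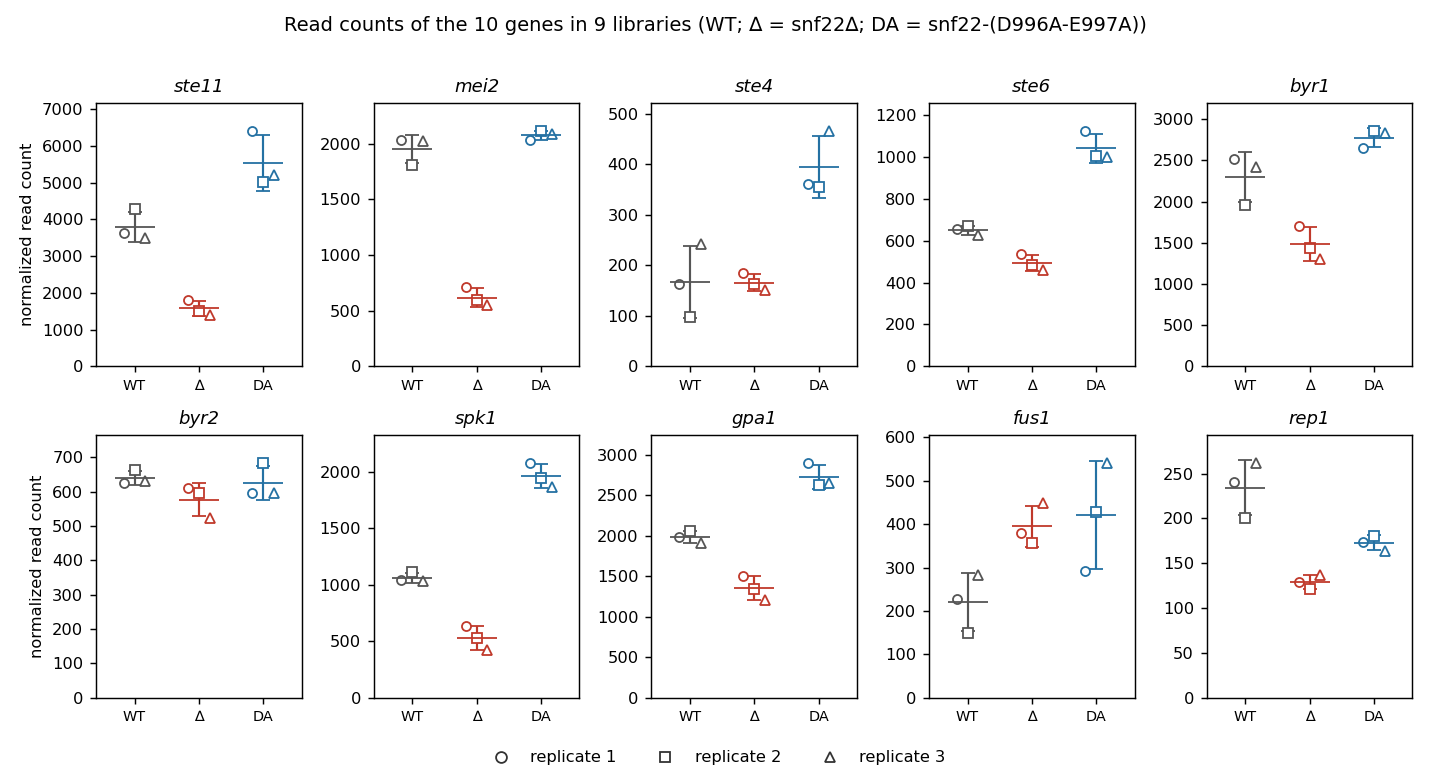
Normalized read counts of the 10 members in the 9 libraries, 1 panel per gene with its own y axis from 0; the x axis gives WT, ∆ for snf22∆ and DA for snf22-(D996A-E997A). Symbols are the 3 replicates, the long bar the mean and the whiskers the SD. In ste11, ste6, byr1, spk1 and gpa1 the strains are in the order snf22∆, WT, the ATPase mutant with no overlap. How many of all genes show no overlap between strains was not counted.

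The transcription factor gene ste11 fell in snf22∆ and rose in the ATPase mutant. Its normalized counts were 3630, 4271 and 3502 in the WT replicates, 1817, 1503 and 1409 in snf22∆ and 6400, 5012 and 5200 in the ATPase mutant, so that no library of a strain overlapped another strain. The mean was 2.41-fold lower in snf22∆ than in WT (log2 −1.27, SE 0.12, adjusted p = 1.14e-05). It was 1.46-fold higher in the ATPase mutant than in WT (log2 0.54, SE 0.12, adjusted p = 0.00381). Between the mutants the difference came to 3.51-fold (log2 1.81, SE 0.12, adjusted p = 1.79e-06). Over the 19 alternative fits and left-out libraries the first of these values ranged from −1.38 to −1.18 and the second from 0.43 to 0.62, and both passed in each.

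The meiosis gene mei2 codes for an RNA-binding protein that commits cells to meiosis. It had 2030, 1809 and 2028 normalized counts in WT and 2032, 2112 and 2088 in the ATPase mutant. The snf22∆ replicates stood far below, at 711, 596 and 548. The mean fell by 1.66 on the log2 scale in snf22∆ (SE 0.10, adjusted p = 1.86e-07), which is 3.16-fold lower and the largest change of a member against WT. In the ATPase mutant mei2 differed from WT by 0.09 on the log2 scale (95% interval −0.11 to 0.29, adjusted p = 0.448), although all 3 of its values lay above those of WT by a small margin. The mutants differed 3.36-fold (log2 1.75, SE 0.10, adjusted p = 3.45e-07).

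Among the kinase genes, that of the last kinase of the chain had the largest fold changes. Transcripts of spk1, the MAPK, had 1043, 1111 and 1030 normalized counts for WT, 631, 526 and 419 for snf22∆ and 2079, 1943 and 1863 in the ATPase mutant. The strains were fully apart: 2.02-fold lower in snf22∆ (log2 −1.01, SE 0.12, adjusted p = 7.24e-05), 1.85-fold higher in the ATPase mutant (log2 0.89, SE 0.12, adjusted p = 1.97e-04) and 3.73-fold apart between the mutants (log2 1.90, SE 0.12, adjusted p = 1.41e-06), the widest gap of a member in that comparison.

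For byr1, the MAPK kinase, the WT libraries gave 2523, 1960 and 2426, snf22∆ 1703, 1442 and 1299, and the ATPase mutant 2647, 2854 and 2828 normalized counts. It fell in snf22∆ (log2 −0.64, SE 0.11, adjusted p = 8.10e-04) and was higher in the ATPase mutant than in snf22∆ (log2 0.91, SE 0.11, adjusted p = 2.37e-04). Against WT the ATPase mutant differed by 0.27 (95% interval 0.03 to 0.51), with an adjusted p of 0.0623 that missed the threshold. It passed in 4 of 19 alternatives, among them without WT replicate 1 (log2 0.34, adjusted p = 0.0433) and without snf22∆ replicate 1 (log2 0.27, adjusted p = 0.0464). Without WT replicate 2 the difference was 0.15 (adjusted p = 0.204). Without both WT replicate 2 and ATPase mutant replicate 1 it was 0.20 (adjusted p = 0.115).

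The MAPK kinase kinase gene byr2, at the top of the chain, was the member with no call in any comparison. Its normalized counts were 626, 664 and 632 in WT, 611, 597 and 522 in snf22∆ and 598, 684 and 596 in the ATPase mutant, and the ATPase mutant overlapped both other strains. Its 3 differences were −0.15 in snf22∆ (95% interval −0.37 to 0.07, adjusted p = 0.214), −0.03 in the ATPase mutant (−0.25 to 0.18, adjusted p = 0.800) and 0.12 between the mutants (−0.10 to 0.33, adjusted p = 0.455). The intervals leave room for a change of up to 0.37 on the log2 scale.

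Upstream of the chain, gpa1, the G-alpha subunit behind the pheromone receptor, had 1987, 2063 and 1912 normalized counts for WT, 1509, 1344 and 1210 for snf22∆ and 2901, 2631 and 2653 in the ATPase mutant. Again the strains did not overlap. It fell by 0.55 on the log2 scale in snf22∆ (SE 0.09, adjusted p = 3.62e-04) and rose by 0.46 in the ATPase mutant (SE 0.08, adjusted p = 0.00145), a gap between the mutants of 1.01 (SE 0.09, adjusted p = 1.20e-05).

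The guanine nucleotide exchange factor gene ste6, which activates Ras1 for mating, had 654, 669 and 626 normalized counts for WT, 536, 486 and 461 for snf22∆ and 1122, 1006 and 998 in the ATPase mutant. Its changes had the same order as those of gpa1: −0.39 (SE 0.09, adjusted p = 0.00418), 0.68 (SE 0.09, adjusted p = 1.93e-04) and 1.08 between the mutants (SE 0.09, adjusted p = 1.35e-05). The gene glm2 overlaps ste6 on the same strand, so the reads of the overlap cannot be assigned with certainty; glm2 itself changed by 0.28 (adjusted p = 0.0871) and 0.39 (adjusted p = 0.0294) against WT.

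The adaptor gene ste4, whose product binds Byr2, was the most variable member in WT. It had 162, 97.6 and 241 normalized counts there, 185, 162 and 150 in snf22∆ and 362, 356 and 465 in the ATPase mutant. Only the ATPase mutant stood apart from the rest: 2.37-fold above WT (log2 1.25, SE 0.25, adjusted p = 0.00241) and 2.38-fold above snf22∆ (log2 1.25, SE 0.25, adjusted p = 0.00572). The means of snf22∆ and WT were 166 ± 17.3 and 167 ± 71.9 (SD, n = 3), with an interval of the log2 difference from −0.57 to 0.56 (adjusted p = 0.997). That value ran from −0.30 without WT replicate 2 to 0.32 without WT replicate 3, so these data do not give its direction.

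**Figure D3:**
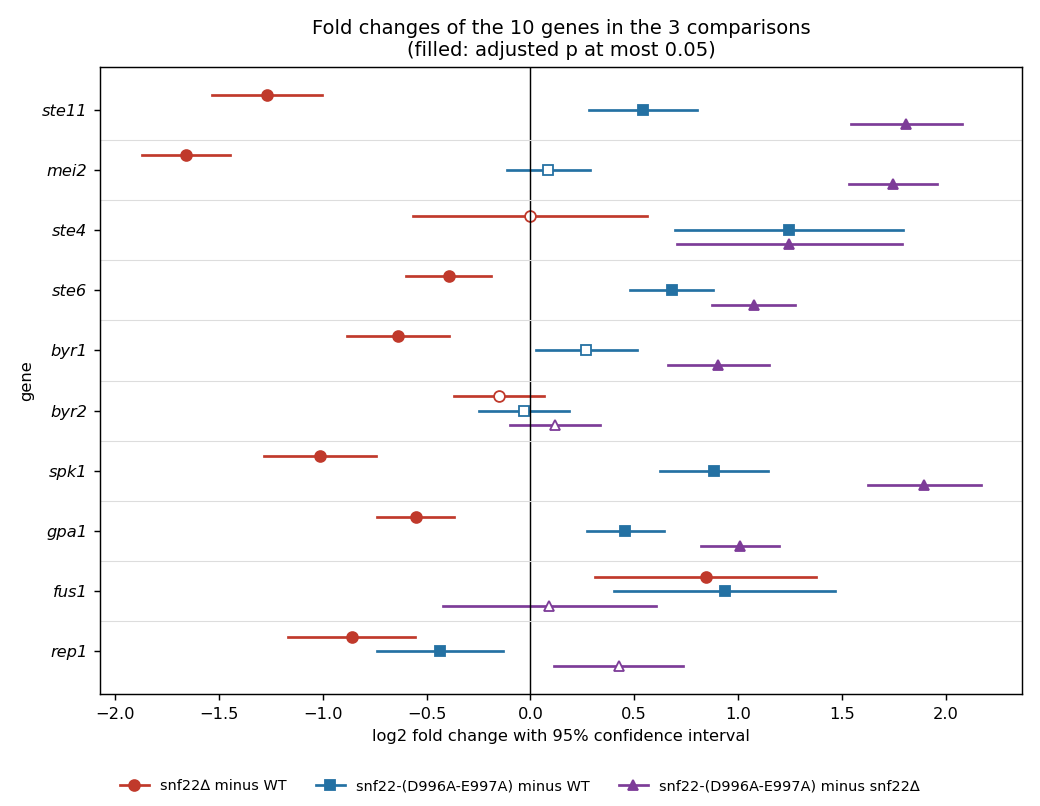
Log2 fold changes of the 10 members with 95% confidence intervals (x axis) in the 3 comparisons; filled symbols have an adjusted p of at most 0.05. In snf22∆ minus WT mei2, ste11 and spk1 lie lowest at −1.66, −1.27 and −1.01; in the ATPase mutant minus WT ste4 lies highest at 1.25.

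The formin gene fus1, which builds the actin structure for cell fusion, was the only member that rose in snf22∆ by the test. It had 228, 150 and 283 normalized counts for WT, 379, 357 and 448 for snf22∆ and 292, 429 and 541 in the ATPase mutant. Every mutant library lay above every WT library. It rose 1.80-fold in snf22∆ (log2 0.84, SE 0.24, adjusted p = 0.0121) and 1.91-fold in the ATPase mutant (log2 0.94, SE 0.24, adjusted p = 0.00945), and the mutants overlapped, with a difference of 0.09 (95% interval −0.42 to 0.60, adjusted p = 0.827). WT replicate 2 and ATPase mutant replicate 1, the libraries that stood apart, were the lowest of their strains for fus1, by 0.76 and 0.72 on the log2 scale below the other replicates. Without WT replicate 2 the rise in snf22∆ was 0.60 (adjusted p = 0.0354).

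The region around fus1 moved too. The antisense RNA fus1-antisense-1, annotated on the strand opposite to fus1, had 424 ± 54.3 normalized counts for WT, 240 ± 11.8 for snf22∆ and 153 ± 9.89 in the ATPase mutant (SD, n = 3). It fell by 0.82 (adjusted p = 3.44e-04) and by 1.47 on the log2 scale (adjusted p = 8.60e-06) and was lower in the ATPase mutant than in snf22∆ as well (−0.65, adjusted p = 0.00628). Against WT, the sense gene rose where its antisense RNA fell. Between the mutants, where the antisense RNA fell further, fus1 changed by 0.09 (adjusted p = 0.827). The strand setting of the counting is not stated in the sources, so the split of reads between overlapping genes is taken as deposited. It is uncertain here and at the other members that an annotated gene overlaps: ste4, ste6, byr1, byr2, spk1, gpa1 and rep1. No annotated gene overlaps ste11 or mei2. On the upstream side of fus1, on its strand, hri1, a kinase gene of the eIF2-alpha family, rose from 676 ± 59.7 to 1779 ± 254 and 1896 ± 103 (log2 1.40, adjusted p = 1.95e-06, and 1.49, adjusted p = 1.92e-06). On the other side plc1, a phospholipase C gene on the opposite strand, rose by 0.57 (adjusted p = 3.33e-04) and 0.56 (adjusted p = 5.15e-04). The gene caf16, overlapping fus1 on the other strand, changed by 0.07 (adjusted p = 0.370) in snf22∆ and 0.28 (adjusted p = 0.00639) in the ATPase mutant. The part of the neighbors in the change of fus1 was not tested.

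**Figure D4:**
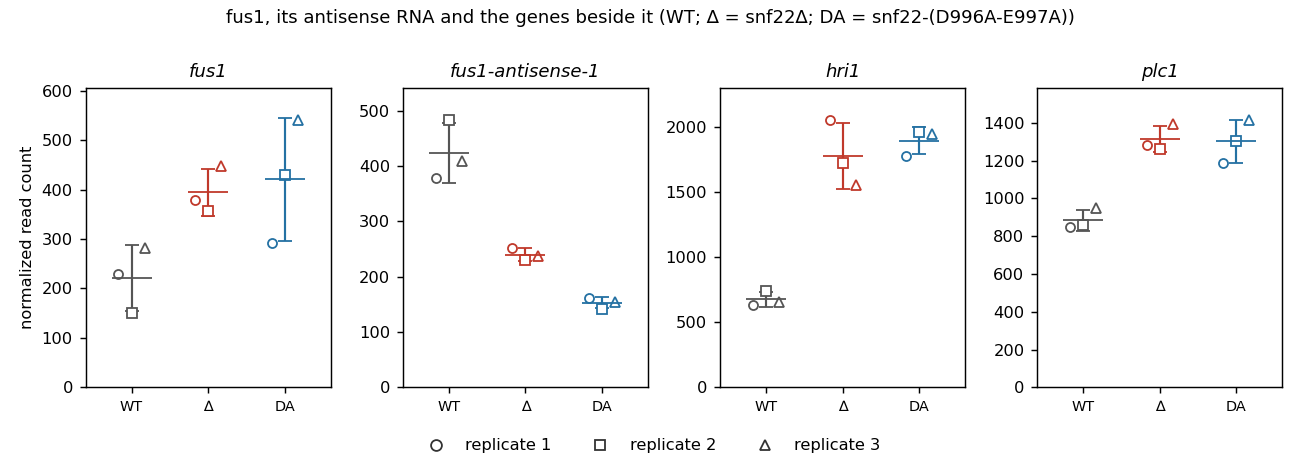
Normalized read counts of fus1, its antisense RNA and the genes on either side in the 9 libraries (y axes from 0; x axis WT, ∆ for snf22∆ and DA for snf22-(D996A-E997A); symbols are replicates, long bars means, whiskers SD). The antisense RNA falls from 424 in WT to 240 and 153 while fus1, hri1 and plc1 lie higher in both mutants than in WT.

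The gene rep1, for a zinc-finger coactivator of the G1 and premeiotic transcription factor MBF, was lower in both mutants. It had 240, 201 and 262 normalized counts for WT, 129, 121 and 137 for snf22∆ and 174, 181 and 164 in the ATPase mutant, so that WT was highest and snf22∆ lowest, with no overlap. In snf22∆ it fell 1.82-fold (log2 −0.86, SE 0.14, adjusted p = 5.02e-04). In the ATPase mutant the fall was −0.44 (SE 0.14, adjusted p = 0.0231), and this call was lost in 7 of 19 alternatives. Leaving out WT replicate 1, WT replicate 3, ATPase mutant replicate 1 or replicate 3 gave −0.42, −0.35, −0.44 and −0.39 with adjusted p-values of 0.0584, 0.0592, 0.0505 and 0.0996. Between the mutants rep1 differed by 0.42 (95% interval 0.12 to 0.73, adjusted p = 0.0609), which passed without WT replicate 2 (log2 0.44, adjusted p = 0.0161) or WT replicate 3 (log2 0.44, adjusted p = 0.0348).

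Levels of different genes were compared per kilobase of coding sequence. In WT the order was ste11 (2701 ± 293 normalized counts per kilobase, SD, n = 3), byr1 (2251 ± 295), gpa1 (1624 ± 61.8), spk1 (949 ± 39.1), mei2 (868 ± 56.6), byr2 (323 ± 10.5), ste6 (237 ± 7.85), ste4 (210 ± 90.5), rep1 (165 ± 21.8) and fus1 (53.5 ± 16.2). The replicates of ste4 spanned those of ste6 and rep1, so these 3 have no clear order, and ste11 and byr1 were just apart (2489 to 3036 against 1916 to 2467). Per kilobase of the whole annotated transcript byr1 came before ste11 in each strain, so the order at the top depends on the length used. In snf22∆ the coding-length means were 1448 for byr1, 1121 for ste11 and 1106 for gpa1. Their replicates overlapped from byr1 (1270 to 1665) to ste11 (1002 to 1292) and from ste11 to gpa1 (988 to 1233), as did those of byr2 (264 to 308) and mei2 (243 to 316), so these neighbors have no clear order there. Per kilobase of transcript gpa1 was above ste11 in snf22∆, and mei2 came after ste6 and ste4. In the ATPase mutant the coding-length means were 3936 for ste11, 2714 for byr1 and 2229 for gpa1, with no overlap.

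Within a strain, replicates also differed in ways the members shared. In snf22∆, 8 of 10 members were higher in replicate 1 than the mean of the other replicates, with a median of 0.24 on the log2 scale, and 8 were lower in replicate 3, with a median of −0.22, while the medians of all genes were 0.00. WT replicate 2 had ste4 and fus1 below the other WT libraries by 1.01 and 0.76 on the log2 scale and ste11 above them by 0.26. In ATPase mutant replicate 1 ste11 was higher by 0.33.

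Across the 9 libraries the members fell into a core and outliers, as a description over libraries that share strain and depth. Pearson's r of the log2 normalized counts was 0.998 between gpa1 and spk1, 0.982 between ste11 and gpa1, 0.977 between ste6 and spk1 and 0.976 between ste11 and spk1. With ste11, fus1 gave −0.23, ste4 0.56, byr2 0.57 and rep1 0.61. Of the coding genes, those most like ste11 were SPAC25B8.12c (r = 0.997), mfm2 (0.991), SPBPB21E7.09 (0.990), erv14 (0.986) and pat1 (0.985). Those most like mei2 were the4 (0.994), grt1 (0.984), pfl8 (0.981), gpm1 (0.978) and mfm2 (0.974). The pattern of mei2 was a fall in snf22∆ with a level near WT in the ATPase mutant: the4 changed by −2.60 and 0.14 against WT and grt1 by −2.67 and 0.28. Of these only mfm2 was named for both.

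Part of the pheromone, receptor and processing genes also went opposite ways in the mutants. Of 12 genes in this list, 1 rose and 7 fell in snf22∆ (median log2 fold change −0.42), 7 rose and 2 fell in the ATPase mutant (0.64), and 7 were higher and 1 lower in the ATPase mutant than in snf22∆ (0.73). Counts of this list and of those below are to be read beside the shares of all genes. Against WT, 30.2% were higher and 25.8% lower in snf22∆, and 25.8% and 22.7% in the ATPase mutant. Between the mutants 8.13% were higher and 8.64% lower in the ATPase mutant. Counts near these shares do not set a list apart from other genes. The 3 genes of the M-factor pheromone, mfm1, mfm2 and mfm3, fell by 1.21, 1.91 and 1.27 on the log2 scale in snf22∆ (adjusted p = 0.00207, 9.30e-06 and 0.00202) and rose by 2.85, 0.57 and 0.71 in the ATPase mutant (adjusted p = 1.58e-06, 0.0157 and 0.0232). They code for the same peptide, and how reads common to them were counted is not stated. In normalized counts mfm2 was at 1759 ± 159 in WT, 466 ± 140 in snf22∆ and 2621 ± 363 in the ATPase mutant. The counts of mfm1 were lower, at 40.1 ± 7.56, 17.3 ± 5.62 and 292 ± 11.2. Those of mfm3 were 31.4 ± 7.19, 13.0 ± 0.761 and 51.6 ± 5.24. Of these 3 genes only mfm2 was called by the 2-fold rule in snf22∆. The gene mam2, for the receptor of P-factor that signals to Gpa1, went from 236 ± 33.4 in WT to 166 ± 54.2 in snf22∆ and 1523 ± 81.5 in the ATPase mutant, a rise of 2.69 against WT (adjusted p = 1.30e-06). Exporter mam1 and methyltransferase mam4, which process M-factor, changed by −0.33 and −0.85 in snf22∆ (adjusted p = 0.00519 and 5.51e-05) and by 0.77 and 0.76 in the ATPase mutant (adjusted p = 2.98e-05 and 1.32e-04). The P-factor gene map2, a P-cell gene, fell in both (−0.54, adjusted p = 0.0180, and −1.26, adjusted p = 2.43e-04). The protease gene sxa2, whose product degrades P-factor, rose in both (0.56, adjusted p = 0.00166, and 0.92, adjusted p = 9.41e-05), as fus1 did. The genes mam3, map3 and sxa1 passed in neither mutant against WT, and map4 fell only in the ATPase mutant (−0.18, adjusted p = 0.0428). The 7 M-cell markers summed above are all in this list. Their sum was lower in snf22∆ and higher in the ATPase mutant than in WT, as were most of the members. Of these markers, mam3 changed by 0.04 (adjusted p = 0.763) and 0.24 (adjusted p = 0.0723), and sxa2 rose in both. The part of the markers in the members' changes was not tested.

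Other Ras1 and G-protein genes were called only lower against WT. Of 8, 0 rose and 4 fell in snf22∆ and again in the ATPase mutant by edgeR (by DESeq2, 6 and 4 fell), with medians of −0.25 and −0.22, and 1 was higher and 1 lower between the mutants (median 0.03). The Ras1 GTPase-activating protein gene gap1 fell by 0.80 (adjusted p = 1.52e-05) and 0.49 (adjusted p = 6.47e-04) and was higher in the ATPase mutant than in snf22∆ (0.31, adjusted p = 0.0204). The kinase gene shk1 fell by 0.33 (adjusted p = 0.00326) and 0.41 (adjusted p = 0.00126), and rgs1, a regulator of G-protein signaling, by 0.48 in snf22∆ (adjusted p = 0.0282). ras1 itself changed by −0.17 (adjusted p = 0.0917) and −0.14 (adjusted p = 0.155).

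Known activators of ste11 were lower or near WT in both mutants. Of 7, 0 rose and 4 fell in snf22∆ (median −0.31) and 0 rose and 5 fell in the ATPase mutant (median −0.47), with 0 higher and 1 lower between the mutants (median −0.13). In the ATPase mutant, where ste11 was higher than in WT, rst2 fell by 0.48 (adjusted p = 0.00156), the stress factor genes atf1 and pcr1 by 0.79 (adjusted p = 0.00739) and 0.53 (adjusted p = 0.00184), and prr1 by 0.47 (adjusted p = 4.10e-04). In snf22∆ pcr1 fell by 0.47 (adjusted p = 0.00266) and rst2 changed by 0.02 (adjusted p = 0.857).

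Pathways that hold Ste11 down contained 2 genes that were over 2-fold lower in both mutants, gpa2 and pac2. In the cAMP-PKA pathway, which holds ste11 off when glucose is present, 2 of 9 rose and 2 fell in snf22∆ (median 0.17), 2 rose and 3 fell in the ATPase mutant (0.04), and 0 were higher and 1 lower between the mutants (−0.01). Its G-alpha gene gpa2 fell from 2578 ± 377 normalized counts to 1044 ± 34.1 and 1034 ± 168 (log2 −1.30, adjusted p = 9.83e-06, and −1.32, adjusted p = 1.28e-05). The receptor gene git3 fell by 0.80 (adjusted p = 3.87e-04) and 0.42 (adjusted p = 0.0181), and cgs1, for the regulatory subunit of the kinase Pka1, rose by 0.55 in the ATPase mutant (adjusted p = 0.00619). Of 7 other repressors of Ste11 or its targets, 0 rose and 4 fell in each mutant (medians −0.19 and −0.18), and 2 were higher and 1 lower between the mutants (0.14). Here pac2 fell from 9691 ± 1523 to 3825 ± 107 and 4215 ± 130 (−1.34, adjusted p = 1.27e-06, and −1.20, adjusted p = 3.94e-06), nrd1, also called msa2, by 0.94 (adjusted p = 4.81e-06) and 0.52 (adjusted p = 4.84e-04), and msa1 by 0.91 (adjusted p = 1.81e-05) and 0.29 (adjusted p = 0.0228).

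Genes around Mei2 changed by at most 0.80 on the log2 scale. Of 8 partners and regulators, 3 rose and 3 fell in snf22∆ (median 0.19), 3 rose and 2 fell in the ATPase mutant (0.19), and 1 was higher and 0 lower between the mutants (−0.02). The kinase gene pat1, whose product inhibits Mei2 and Ste11, fell by 0.32 in snf22∆ (adjusted p = 0.00256) and was higher by 0.41 in the ATPase mutant than in snf22∆ (adjusted p = 0.00218). The gene mmi1, for a factor that removes meiotic RNAs in growing cells, fell by 0.41 (adjusted p = 6.38e-04) and 0.56 (adjusted p = 1.09e-04), and erh1, for its partner, rose by 0.52 (adjusted p = 0.00269) and 0.57 (adjusted p = 0.00224). The Mei4 transcription factor gene of middle meiosis was low, at 45.6 ± 3.85 normalized counts in WT, and mei4 rose by 0.80 (adjusted p = 0.0324) and 0.78 (adjusted p = 0.0420).

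Of 5 cell fusion factors beside Fus1, 1 rose and 1 fell in snf22∆ (median −0.41), 2 rose and 0 fell in the ATPase mutant (0.35) and 2 were higher and 0 lower between the mutants (0.47). prm1 fell by 0.91 in snf22∆ (adjusted p = 3.26e-04), cfr1 rose by 0.64 (adjusted p = 0.00140) and 0.35 (adjusted p = 0.0365), and dni2 was higher by 0.98 in the ATPase mutant than in snf22∆ (adjusted p = 0.0126). In the group of 6 MBF factors around Rep1, 3 rose and 1 fell in snf22∆ (median 0.39), 1 rose and 1 fell in the ATPase mutant (0.17) and 1 was higher and 0 lower between the mutants (−0.03). There cdc10 rose by 0.41 (adjusted p = 0.00781) and 0.47 (adjusted p = 0.00502), and res2 by 0.49 in snf22∆ (adjusted p = 0.00307), while res1 fell by 0.39 in snf22∆ (adjusted p = 5.93e-04).

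The MAPK chains of stress and cell integrity signaling are built like that of Byr2, Byr1 and Spk1. In the stress chain of 5 genes 1 rose and 2 fell in snf22∆ (median −0.08), 0 rose and 2 fell in the ATPase mutant (−0.19), and 0 were higher and 2 lower between the mutants (−0.13). Its largest changes were 0.32 for win1 in snf22∆ (adjusted p = 0.00487), −0.38 for win1 between the mutants (adjusted p = 0.00633), −0.32 for sty1 in snf22∆ (adjusted p = 0.00367) and −0.31 for wis4 between the mutants (adjusted p = 0.0297). Of the 3 genes of the cell integrity chain 1 rose and 1 fell in each mutant (medians 0.20 and 0.13) and 0 were higher and 1 lower between the mutants (−0.07), with mkh1 up by 0.79 (adjusted p = 4.40e-06) and 0.51 (adjusted p = 1.61e-04) and pmk1 down, at −0.51 (adjusted p = 2.18e-04) and −0.35 (adjusted p = 0.00300). The difference between the chains was not tested.

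Nitrogen starvation genes, whose induction accompanies mating, had no common direction. Of 8, 3 rose and 5 fell in snf22∆ (median −0.31), 1 rose and 3 fell in the ATPase mutant (−0.20), and 0 were higher and 4 lower between the mutants (−0.21). isp4 fell from 4852 ± 1562 normalized counts to 584 ± 51.5 and 640.0 ± 29.2 (−3.05, adjusted p = 3.31e-07, and −2.92, adjusted p = 7.12e-07), whereas isp5 rose by 1.58 (adjusted p = 1.36e-06) and 0.99 (adjusted p = 7.48e-05). The ammonium transporter gene amt3 rose by 1.13 in snf22∆ (adjusted p = 0.00155), and amt1 fell by 0.43 (adjusted p = 0.00469) and 0.93 (adjusted p = 5.22e-05).

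The list counts given as 0 by edgeR were also 0 at an unadjusted p under 0.05 and by DESeq2 in both comparisons with WT. Between the mutants there were exceptions. In the cAMP-PKA list 4 genes were higher at an unadjusted p under 0.05 and 3 by DESeq2, and in the nitrogen starvation list 1 was higher by either. At the unadjusted p alone, 1 activator of ste11 and 1 gene of the cell integrity chain were higher, and 1 cell fusion gene and 1 MBF factor were lower.

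**Figure D5:**
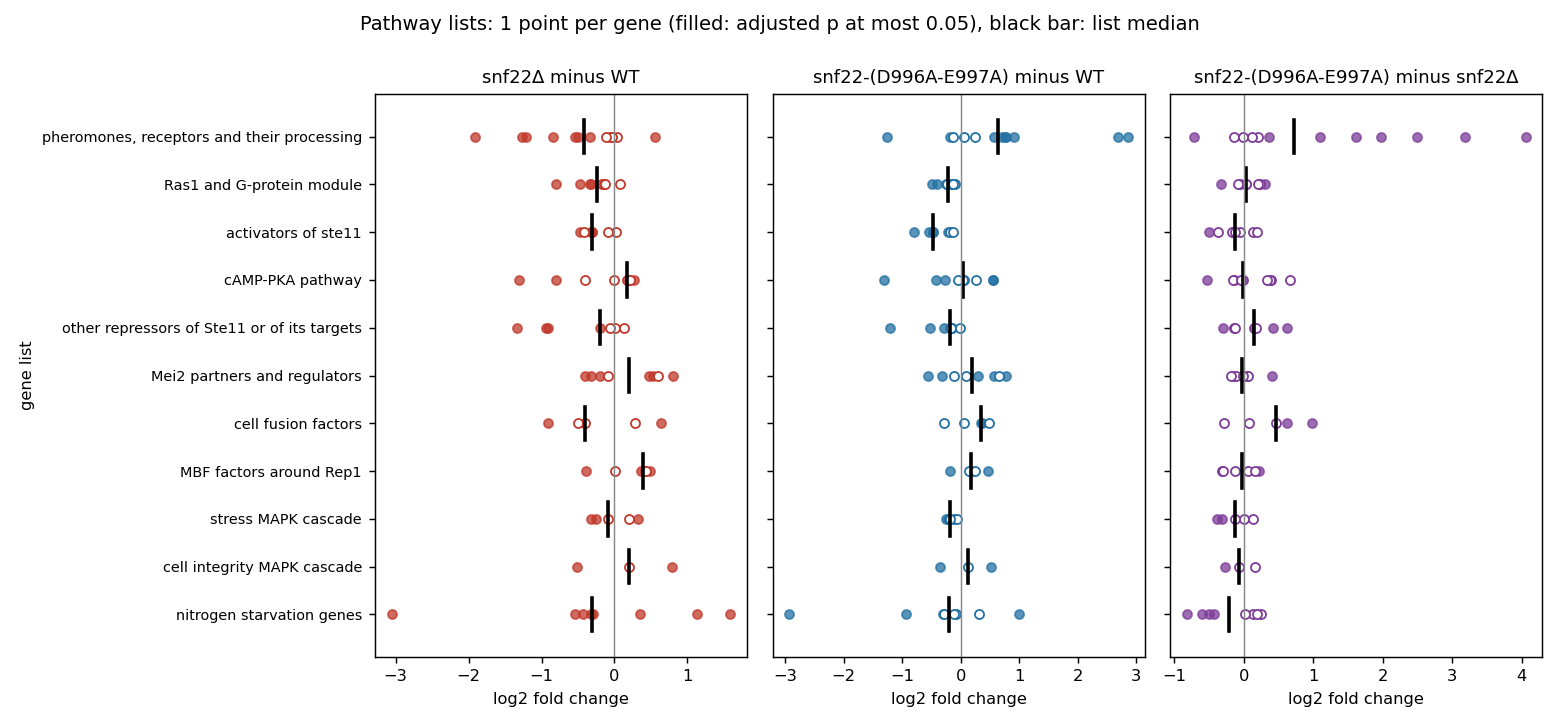
Log2 fold changes (x axis) of the genes of 11 pathway lists in the 3 comparisons, 1 panel each; points are genes, filled where the adjusted p is at most 0.05, and black bars are list medians. The pheromone list lies to the left in snf22∆ minus WT (median −0.42) and to the right in the other panels (0.64 and 0.73).

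Among 92 tested genes other than the members whose window holds the 9-letter box, 26 were higher and 27 lower in snf22∆ than in WT, or 28.3% and 29.3% beside 30.2% and 25.8% of all genes. In the ATPase mutant 30 were higher and 13 lower than in WT, or 32.6% and 14.1% beside 25.8% and 22.7%. Between the mutants 15 were higher and 4 lower, or 16.3% and 4.35% beside 8.13% and 8.64%. Their median log2 fold changes were −0.03, 0.09 and 0.08 beside 0.02, 0.02 and −0.02 of all genes. These counts were made after the values of the members were seen.

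Beyond fus1, genes beside the members changed in some places. The noncoding RNA rse1, described in the deposited annotation as a repressor of Ste11, lies upstream of ste11 on the other strand. It was lower in snf22∆, as ste11 was: 2413 ± 302 normalized counts for WT, 1804 ± 105 for snf22∆ and 2855 ± 323 in the ATPase mutant, with a fall of 0.42 on the log2 scale in snf22∆ (adjusted p = 0.00536) and a difference of 0.24 in the ATPase mutant (adjusted p = 0.0703). Between the mutants rse1 was higher by 0.66 in the ATPase mutant (adjusted p = 0.00129), where ste11 was higher too. On the other side of ste11 the kinase gene ppk25 fell in both (−0.41, adjusted p = 0.00240, and −0.30, adjusted p = 0.0161).

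Upstream of mei2, on the other strand, SPNCRNA.993 had 47.8 ± 4.74 normalized counts for WT, 45.6 ± 6.14 for snf22∆ and 128 ± 7.12 in the ATPase mutant. It rose in the ATPase mutant by 1.42 (adjusted p = 1.10e-04), where mei2 was near WT, and changed by −0.06 in snf22∆ (adjusted p = 0.810), where mei2 fell. SPNCRNA.992, on the other side of mei2, fell by 0.37 in the ATPase mutant (adjusted p = 0.0177).

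Antisense RNAs were counted at other members as well. ste6-antisense-1 rose in both mutants (0.83, adjusted p = 0.00522, and 0.69, adjusted p = 0.0176), while ste6 fell in snf22∆ and rose in the ATPase mutant. byr1-antisense-1 rose by 0.67 in snf22∆ (adjusted p = 0.0154), where byr1 fell. At gpa1 the antisense RNA SPNCRNA.1503 changed by −0.18 in snf22∆ (adjusted p = 0.202) and −0.20 in the ATPase mutant (adjusted p = 0.177), while gpa1 fell in the former and rose in the latter.

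Of the remaining neighbors, those that passed in at least 1 comparison with WT were ptl1 (−0.56 and −0.38) and mme1 (−0.48 and −0.64) beside ste6, utp8 beside ste4 (−0.43 in snf22∆), tho2 beside byr1 (0.19 in snf22∆), hem4 (0.26 in snf22∆) and eta2-antisense-1 (−0.83 and −0.70) at spk1, SPNCRNA.1504 beside gpa1 (−0.55 in snf22∆), and mmp1 (0.20 in the ATPase mutant) and exg3 (0.23 in snf22∆) at rep1. None of those at byr2 did so. Of the nearest or overlapping genes, none of those at ste11, spk1 and gpa1 was higher in the ATPase mutant than in WT by the test. Those that were higher lay at mei2 (SPNCRNA.993), ste6 (glm2 and ste6-antisense-1), fus1 (hri1, plc1 and caf16) and rep1 (mmp1). Their part in the changes of the members was not tested.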

How the data were processed

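Poly(A)+ RNA of 9 S. pombe cultures, 3 per strain, was sequenced as paired reads from libraries of a stranded kit. The authors aligned the reads with HISAT2 2.1.0 to ASM294v2 and made gene counts in HTSeq 0.10.0. The deposited matrix holds raw counts with no scaling. The strand setting of the counting is not given in the sources used here: of 217 noncoding genes lying wholly inside a counted gene of the other strand, 71.4% had at least 10 counts in at least 3 libraries. The authors' tables of DESeq2 fold changes and p-values for each mutant were used only for gene names and products.

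Names matched a reference copy of ASM294v3 for 6836 IDs by locus tag and 12 by synonym; 140 had no match. Of the 6989 lines, 1 ID was on more than 1 line and its lines were summed. A filter of 10 counts in 3 libraries left 6091 genes, 4965 of them coding. These were scaled by TMM and tested in 1 fit of all 9 libraries with edgeR 4.0.16 (glmQLFit, glmQLFTest; R 4.3.3), on strain alone, and p-values were adjusted by the Benjamini-Hochberg method. The design took all strains so that they share 1 estimate of the spread. Library totals were 15696972 to 22664218, and the biological coefficient of variation was 0.104. Counts were normalized to the mean effective library size, 20325200. Likeness is Pearson's r of log2(normalized count + 1). The procedure was tested on simulated data.

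The replicate numbers come from the sample titles. They paired snf22∆ with WT, whose same-numbered libraries deviated together (r = 0.33, 0.48 and 0.52), but not snf22-(D996A-E997A) with WT (−0.33, 0.083 and 0.56) or with snf22∆ (−0.0043, 0.22 and 0.24). Nothing says more of the replicates than that they are biological, so p-values measure the spread between these cultures.

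The genes named are the 10 members, snf22, the neighbors that passed, and the 5 coding genes most like ste11 and mei2. From each of 11 pathway lists, up to 3 genes with the largest changes among those that passed are named, plus those taken by the 2-fold rule. The genes ras1, prr1, amt1, mam3, map3, map4, mfm3, sxa1 and sxa2 were named after their values were seen. The members and lists were chosen with earlier results of these data known. Alternatives were other scalings (RLE, upper quartile), DESeq2 1.42.0, other count filters, coding genes only, only the groups compared, a replicate block and leaving out libraries.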

Additional observations from a re-analysis of the deposited data

How the results depend on the processing

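Over 19 alternatives, 540 of 570 member values kept their direction and their side of the threshold, 7 lost the call, 11 gained it and 12 changed sign without passing. Changes of sign touched only ste4 in snf22∆ against WT (upper quartile 0.061, no filter 0.0070, replicate block 0.049, replicate block with only the 2 groups compared 0.054; −0.30 to 0.32 when a library was left out), byr2 in snf22-(D996A-E997A) against WT (upper quartile 0.045, without WT replicate 2 and snf22-(D996A-E997A) replicate 1 0.026; −0.10 to 0.0095 when a library was left out) and fus1 between the mutants (−0.11 to 0.30 when a library was left out). The number of members lower in snf22-(D996A-E997A) than in WT, 1, was 0 with upper quartile scaling, with only the 2 groups compared and with the replicate block on those groups, and 0 to 1 when a library was left out; the gene is rep1, and the cause was not tested.

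With the replicate block on all libraries, members higher and lower were 1 and 7 in snf22∆ against WT, where the numbers pair, 7 and 1 in snf22-(D996A-E997A) against WT, and 8 and 0 between the mutants, where they do not. In the pairs of WT and snf22∆ every library correlated best with its own number. The block changed no other call than those of byr1 against WT and rep1 between the mutants, and on only the 2 groups compared that of rep1 in both comparisons of the ATPase mutant. DESeq2 gave the same counts of members except 8 higher between the mutants. Of all genes, the shares between the mutants, 8.13% higher and 8.64% lower, became 17.7% and 14.8% with only the 2 groups compared, 18.4% and 16.1% with the block on these, and 16.0% and 15.5% without the 2 libraries that stood apart, an alternative chosen after seeing the data. Upper quartile scaling moved the median log2 fold change of all genes from 0.02 to 0.10 in both comparisons with WT. At 3 replicates, differences of ste4 and fus1 are the least precise, with standard errors of about 0.25 on the log2 scale.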
